A study of Mus musculus with 20 samples.

Results

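The genes described here are 9 chemokine receptors and Cxcl ligands: the receptors Cx3cr1, Ccr1, Ccr2, Ccrl2, Cxcr4 and Cmklr1, and the ligands Cxcl16, Cxcl14 and Cxcl2. They were picked by name, with earlier results of these data known, out of 19751 measured genes. Their values came from probe sets annotated to exactly 1 gene symbol, and each of the 9 had 1 such probe set. Microarrays measured expression in microglia, macrophages that live in the brain, sorted by flow cytometry from littermate mice aged 8.5 months. WT mice (4 arrays) carried neither alteration. Trem2-/- mice (4 arrays) lacked the lipid-sensing microglial receptor Trem2. 5XFAD mice (5 arrays) carried human transgenes with familial Alzheimer's mutations, which the 5XFAD line expresses in neurons and which lead to amyloid plaques. Trem2-/-5XFAD mice (6 arrays) carried the transgenes and lacked Trem2. The labels do not say that each array came from a separate animal, so p-values reflect only how arrays of a group scatter, which may be partly technical. Neither gate nor sex is given in the sources used here. In 1 further array the title and the genotype label disagreed, and it entered no comparison.

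Chemokine receptors are G protein-coupled receptors that steer migrating cells along gradients of small secreted proteins, the chemokines. Microglia are known for their fractalkine receptor Cx3cr1, which binds a ligand made by neurons, whereas Ccr2 is the receptor through which inflammatory monocytes leave the blood. Cmklr1 and Ccrl2 both bind chemerin, but only Cmklr1 is known to signal.

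Levels are given as log2(intensity + 1), and differences are differences of group means on that scale with their standard error (SE). A gene was tested where at least 4 of the 19 assigned arrays had it over their 40th percentile. That percentile was 4.16 to 4.34 on the log2 scale, and 12728 genes passed. Among the 9 members, 8 passed: Ccr2 was over it in 3 arrays and Ccr1 in 10, and the other 7 in all 19. One model in limma covered all arrays, and a difference was called at a Benjamini-Hochberg adjusted p under 0.05 over the 12728 genes.

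Trem2 itself was at 11.14 to 11.80 in WT and 5XFAD arrays and at 6.75 to 7.60 in those lacking Trem2, and whether its probe set lies in the deleted part was not examined here. The 7 measured microglial markers were over the filter in all 19 arrays, with Csf1r at 11.71 to 12.18. Markers of other cells were mixed. Over it in 0 arrays were 2 of 8 measured monocyte markers (Chil3 and Vcan), 2 of 11 neutrophil markers (Mmp8 and Cxcr2) and 7 of 9 lymphocyte markers (among them Cd3d, Cd79a and Ms4a1). Over it in most arrays were Nr4a1 (19) and F13a1 (18) of the monocyte list, Csf3r (19), S100a8 (18), S100a9 (18) and Camp (13) of the neutrophil list, and Cd3e (19) and Klrd1 (16) of the lymphocyte list. Klrd1, a receptor of natural killer cells, fell by 1.42 ± 0.43 in 5XFAD compared with WT (limma adjusted p = 0.0267) and was 1.59 ± 0.39 higher in Trem2-/-5XFAD than in 5XFAD (adjusted p = 0.012). On the same list Nkg7 and Ncr1, also genes of natural killer cells, were over the filter in 0 arrays. Cd3e, the other tested lymphocyte marker, differed by -0.04 ± 0.13 (limma adjusted p = 0.898) and 0.09 ± 0.11 (adjusted p = 0.729) in these comparisons. Some arrays stood apart. Summed intensities of salivary gland transcripts were 1699 to 3267 in WT 1, WT 2, 5XFAD 1 and 5XFAD 2, and 28.64 to 890.5 elsewhere, and summed neutrophil markers reached 3600 in Trem2-/- 1 and 5830 in Trem2-/-5XFAD 1. Xist, transcribed in females, was high in 3 of 4 WT, 3 of 4 Trem2-/-, 1 of 5 5XFAD and 0 of 6 Trem2-/-5XFAD arrays, so sex is unevenly spread over the groups. Below, the arrays with salivary gland transcripts are WT 1, WT 2, 5XFAD 1 and 5XFAD 2, so Trem2-/- 3, at 890.5, stayed in. Values without those arrays, without the arrays with high neutrophil markers (Trem2-/- 1 and Trem2-/-5XFAD 1), or with Xist as a covariate, stand beside the results they move.

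Most members differed between 5XFAD and WT microglia. Of the 8 tested, 5 rose in 5XFAD (Cxcr4, Cxcl2, Cxcl14, Cxcl16 and Ccrl2) and 2 fell (Cx3cr1 and Cmklr1), while 8.23% of all tested genes were called higher and 6.77% lower. The arrays of the groups did not overlap for these 7 genes, compared with 13.4% of all tested genes. The members' median difference was 0.79, beside -0.02 over all genes. In Trem2-/-5XFAD compared with 5XFAD, the same 5 genes that had risen were lower and Cx3cr1 was higher, against 4.46% of all genes called lower (568) and 3.21% higher (409); with each array centred on its median that split of all genes was 625 and 286. There 6 members did not overlap, compared with 7.14% of all genes, and the members' median was -0.49 beside 0.037. These comparisons share the 5XFAD arrays, so the opposite directions are not separate evidence. Because the members and lists were chosen with earlier results of these data known, the values over all genes, here and below, are given for scale only. They do not test whether the members changed more than other genes.

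**Figure D1:**
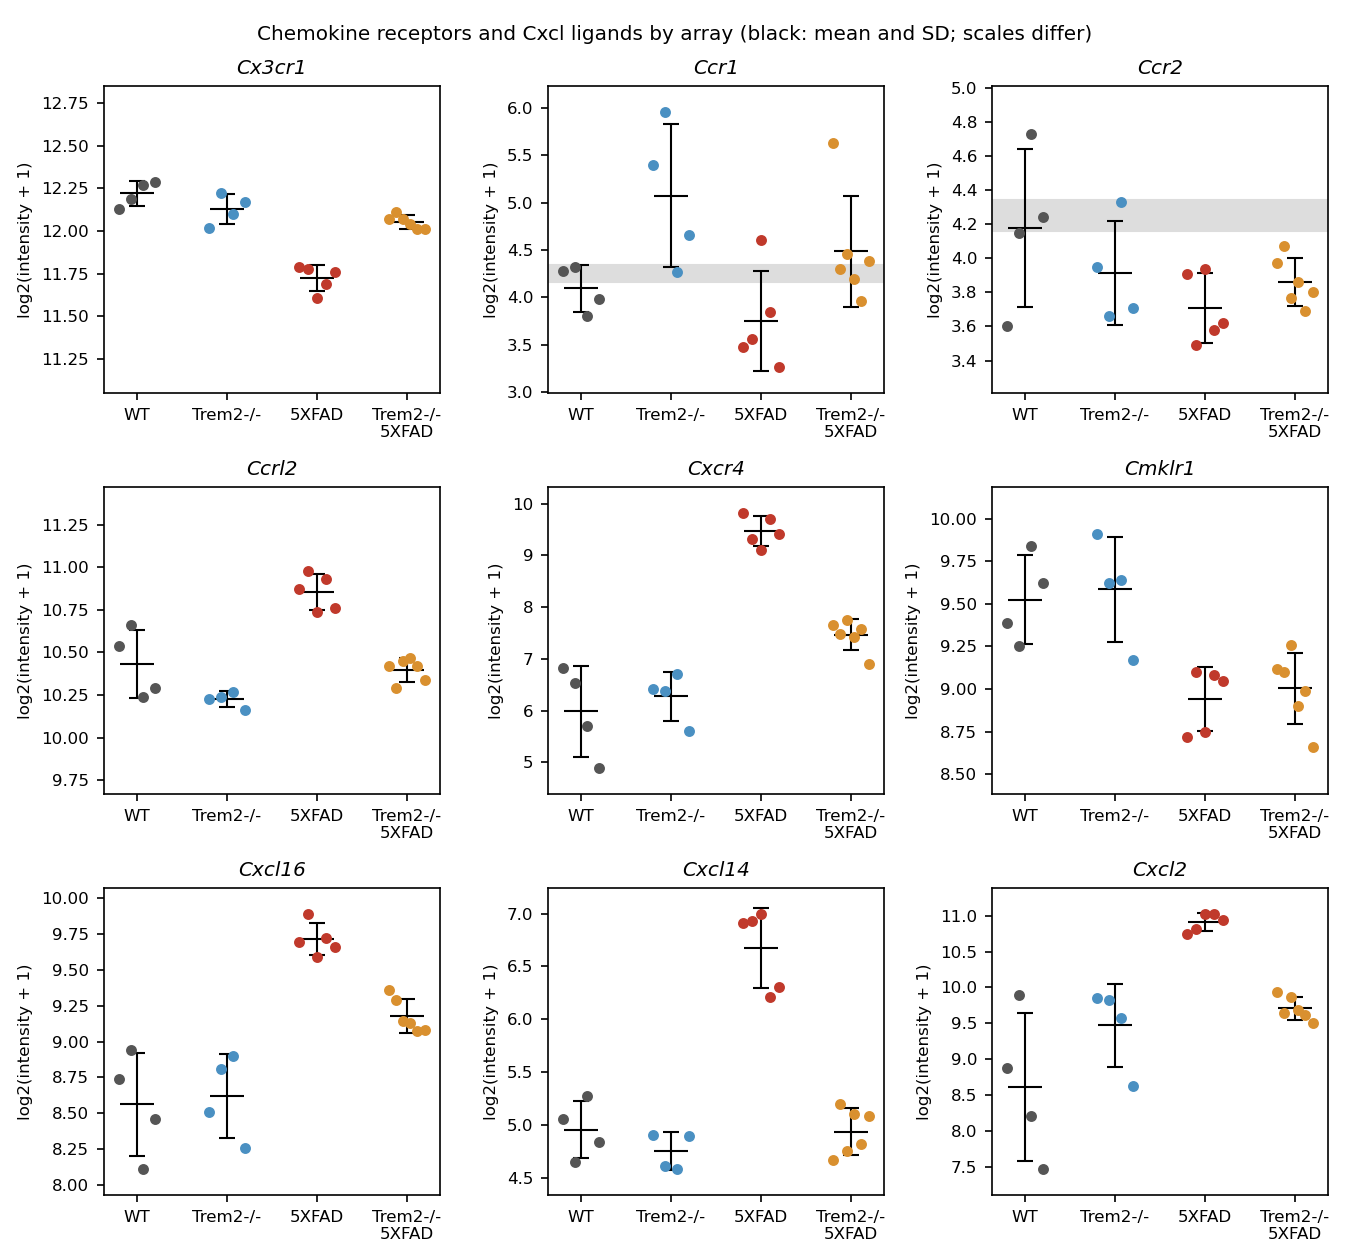
Level of each member as log2(intensity + 1) in every assigned array, grouped by genotype, with the group mean and SD in black and a separate vertical scale per gene. The grey band is the range of the arrays' 40th percentiles (4.16 to 4.34). Cxcr4, Cxcl2, Cxcl14, Cxcl16 and Ccrl2 are highest in the 5 5XFAD arrays, with no overlap with any other group, and Cx3cr1 is lowest there.

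Cxcr4, the receptor of the chemokine Cxcl12, had the largest difference of the members. Its levels in WT 1 to 4 were 6.83, 6.53, 5.71 and 4.88, and in Trem2-/- 1 to 4 they were 6.42, 6.38, 6.71 and 5.60. In 5XFAD 1 to 5 they were 9.83, 9.31, 9.10, 9.70 and 9.41. In the 6 Trem2-/-5XFAD arrays the lowest was 6.91, the median 7.53 and the highest 7.75. Thus every 5XFAD array lay above every other array, the Trem2-/-5XFAD arrays came next without overlapping the rest, and the WT and Trem2-/- arrays overlapped. Cxcr4 rose by 3.48 ± 0.30 (SE) in 5XFAD compared with WT, an 11.2-fold difference (limma adjusted p = 3.33e-08). Its difference of Trem2-/-5XFAD from 5XFAD was -2.00 ± 0.27 (4.01-fold lower, adjusted p = 3.35e-05). Among mice lacking Trem2, the transgenes came with a rise of 1.19 ± 0.29 (2.28-fold, adjusted p = 0.0298), a call lost in 10 of 31 alternatives, among them Xist as a covariate (adjusted p = 0.0773) and leaving out the arrays with high neutrophil markers (adjusted p = 0.121). Within WT, the arrays with salivary gland transcripts, WT 1 and WT 2, held the higher values, and without the 4 such arrays the rise in 5XFAD was 4.11 ± 0.31 (adjusted p = 9.79e-08).

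The 250 bases before the RefSeq start of Cxcr4 (GRCm38.p6, chr1:128592300-128592549, minus strand) are shown because Cxcr4 moved most. The capitals mark TATAAA on both strands, overlapping, which begins 32 and 30 bases before the start; of 32851 windows of this length before RefSeq starts, 12.4% hold TATAAA on either strand.
Cxcr4: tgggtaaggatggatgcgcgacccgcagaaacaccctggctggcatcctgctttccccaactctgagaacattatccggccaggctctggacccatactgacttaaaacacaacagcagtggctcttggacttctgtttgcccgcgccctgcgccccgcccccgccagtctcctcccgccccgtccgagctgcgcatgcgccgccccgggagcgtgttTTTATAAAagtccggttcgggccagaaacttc

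Cxcl2, a ligand of the receptor Cxcr2 that attracts neutrophils and is made by activated macrophages, had the next largest rise. In WT 1 to 4 Cxcl2 was at 8.87, 9.89, 8.21 and 7.46, and in Trem2-/- 1 to 4 they were 9.85, 9.83, 9.58 and 8.62. Levels in 5XFAD 1 to 5 were 10.75, 10.82, 11.03, 11.02 and 10.94. In the 6 Trem2-/-5XFAD arrays they ran from 9.50 over a median of 9.67 to 9.94. The 5XFAD arrays lay above all others and close together (SD 0.12), whereas the WT arrays were the most scattered (SD 1.03). Trem2-/-5XFAD overlapped Trem2-/-, which overlapped WT. Cxcl2 rose by 2.30 ± 0.32 in 5XFAD compared with WT (4.94-fold, limma adjusted p = 2.64e-05), and the difference of Trem2-/-5XFAD from 5XFAD was -1.21 ± 0.29 (2.31-fold lower, adjusted p = 0.011). With the transgenes but without Trem2 it was 0.24 ± 0.31 higher than in Trem2-/- (95% interval -0.41 to 0.88, adjusted p = 0.792). Without the arrays with salivary gland transcripts the rise in 5XFAD was 3.16 ± 0.29 (adjusted p = 1.18e-06). Summed neutrophil markers were 890 to 1110 in WT, 1110 to 3600 in Trem2-/-, 1090 to 2100 in 5XFAD and 1110 to 5830 in Trem2-/-5XFAD, and 0 of the 7 tested neutrophil markers were called in limma in any comparison, with 0 to 3 at an unadjusted p under 0.05. Csf3r, at 9.46 to 9.92 and over the filter in all 19 arrays, makes up much of the lower sums. S100a8 was 2.00 ± 0.84 higher in 5XFAD than in WT (limma adjusted p = 0.122), where the 7 markers' median was 0.14. It was 1.61 ± 0.76 higher in Trem2-/-5XFAD than in 5XFAD (adjusted p = 0.241), where their median was 0.77. The part of neutrophil RNA in the Cxcl2 values was not tested.

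The window before the start of Cxcl2 (GRCm38.p6, chr5:90903649-90903898, plus strand) is shown because Cxcl2 is a textbook target of the NF-kappaB factors. Capitals mark matches to the kappaB-like letters GGNNTTTCC, beginning 96 and 77 bases before the start; 4.93% of all windows hold such a match on either strand.
Cxcl2: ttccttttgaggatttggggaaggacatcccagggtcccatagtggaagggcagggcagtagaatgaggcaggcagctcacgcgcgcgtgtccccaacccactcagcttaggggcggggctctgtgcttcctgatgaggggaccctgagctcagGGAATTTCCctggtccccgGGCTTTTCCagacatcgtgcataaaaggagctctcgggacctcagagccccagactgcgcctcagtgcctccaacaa

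Among the 8 members with a promoter sequence in the RefSeq table (10 start sites; Cxcl16 has none there), 5 motifs were searched on both strands. Only Cxcr4 held TATAAA. GGNNTTTCC occurred in Cxcl2 and, as GGACTTTCC 68 bases before 1 of 3 start sites, in Ccrl2. The hypoxia-type core ACGTG, in 16.6% of all windows, occurred in Ccrl2 and Cmklr1. GAGGAA, a core bound by the macrophage factor PU.1, occurred in Ccr1 and Cmklr1 and in 23.3% of all windows. TGANTCA, an AP-1-like sequence in 6.75% of windows, was found before none of the members. A match is a description of letters only.

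Cxcl14, a chemokine whose receptor is debated, was high in 5XFAD and near the WT level in the other groups. The WT arrays, 1 to 4, had Cxcl14 at 5.06, 4.65, 5.27 and 4.84, and in Trem2-/- 1 to 4 they were 4.91, 4.61, 4.58 and 4.90. 5XFAD 1 to 5 had levels of 6.91, 6.93, 7.00, 6.21 and 6.31. The 6 Trem2-/-5XFAD arrays had 4.67, 4.96 and 5.20 as lowest, median and highest. The 5XFAD arrays lay above all others, with 5XFAD 4 and 5 below the other 3, and the remaining groups overlapped one another. Those remaining groups, at 4.58 to 5.27, were not far above the filter (4.16 to 4.34), where signal is weak. Cxcl14 rose by 1.71 ± 0.17 in 5XFAD compared with WT (3.28-fold, limma adjusted p = 4.02e-07), and the difference of Trem2-/-5XFAD from 5XFAD was -1.73 ± 0.16 (3.32-fold lower, adjusted p = 2.05e-07). Trem2-/-5XFAD and Trem2-/- differed by 0.18 ± 0.17 (95% interval -0.16 to 0.53, adjusted p = 0.677). The rise in 5XFAD was smaller, 1.45 ± 0.23 (limma adjusted p = 0.00035), without the arrays with salivary gland transcripts. Astrocyte markers also moved: their summed intensity was 433 to 469 in WT, 263 to 412 in Trem2-/-, 433 to 680 in 5XFAD and 332 to 416 in Trem2-/-5XFAD. Of 5 tested, 1 rose and 1 fell in 5XFAD compared with WT, beside 8.23% and 6.77% of all genes. In Trem2-/-5XFAD compared with 5XFAD 2 of the 5 fell, beside 4.46% of all genes. Gfap, the intermediate filament of astrocytes, rose by 2.16 ± 0.18 in 5XFAD compared with WT (adjusted p = 2.86e-08), differed by -0.76 ± 0.16 between Trem2-/-5XFAD and 5XFAD (adjusted p = 0.00507) and had an interaction of -1.01 ± 0.25 (adjusted p = 0.0356). In Trem2-/-5XFAD compared with Trem2-/- Gfap rose by 1.15 ± 0.18 (adjusted p = 0.000552). The markers Aldoc and Gja1 were not called in 5XFAD compared with WT, at 0.64 ± 0.26 (limma adjusted p = 0.109) and 0.05 ± 0.17 (adjusted p = 0.893). Between Trem2-/-5XFAD and 5XFAD, Aldoc differed by -0.87 ± 0.24 (adjusted p = 0.0252) and Gja1 by -0.02 ± 0.15 (adjusted p = 0.953). The astrocyte markers Aqp4 and Aldh1l1 were over the filter in 0 arrays, and the part of astrocyte RNA in the Cxcl14 values was not tested.

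Cxcl16, a membrane-anchored chemokine that binds Cxcr6 and is shed by the protease Adam10, followed the order of Cxcr4. Levels of Cxcl16 were, in WT 1 to 4, 8.74, 8.94, 8.11 and 8.46, and in Trem2-/- 1 to 4 they were 8.51, 8.81, 8.90 and 8.26. The 5XFAD arrays, 1 to 5, had 9.69, 9.89, 9.59, 9.72 and 9.66. In Trem2-/-5XFAD the lowest, median and highest were 9.07, 9.13 and 9.36. The 5XFAD arrays were above the Trem2-/-5XFAD arrays, which were above all WT and Trem2-/- arrays, and WT and Trem2-/- overlapped. Cxcl16 rose by 1.15 ± 0.15 in 5XFAD compared with WT (2.21-fold, limma adjusted p = 1.11e-05). It rose by 0.56 ± 0.14 in Trem2-/-5XFAD compared with Trem2-/- (1.47-fold, adjusted p = 0.042), a call lost in 17 of 31 alternatives, among them Xist as a covariate (adjusted p = 0.181) and leaving out the arrays with high neutrophil markers (adjusted p = 0.229). Its difference of Trem2-/-5XFAD from 5XFAD was -0.53 ± 0.13 (1.45-fold lower, adjusted p = 0.0157). Without the arrays with salivary gland transcripts that last difference was -0.48 ± 0.14 and no longer passed (adjusted p = 0.0542).

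Ccrl2, an atypical receptor that presents chemerin on the cell surface, moved in the same directions by less. Ccrl2 was, in WT 1 to 4, at 10.54, 10.66, 10.24 and 10.29, and in Trem2-/- 1 to 4 they were 10.23, 10.24, 10.27 and 10.16. Its 5XFAD levels, arrays 1 to 5, were 10.87, 10.98, 10.74, 10.93 and 10.76. In Trem2-/-5XFAD they ran from 10.29 over 10.42 to 10.47. The 5XFAD arrays were again above all others, the closest being WT 2, and WT overlapped Trem2-/-5XFAD. Ccrl2 rose by 0.42 ± 0.10 in 5XFAD compared with WT (1.34-fold, limma adjusted p = 0.00419), and the difference of Trem2-/-5XFAD from 5XFAD was -0.46 ± 0.09 (1.37-fold lower, adjusted p = 0.00187). Trem2-/-5XFAD and Trem2-/- did not overlap, but their difference of 0.17 ± 0.09 did not pass (adjusted p = 0.42).

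Cmklr1, the signalling receptor of chemerin, went the other way. WT 1 to 4 had Cmklr1 at 9.39, 9.25, 9.84 and 9.62, and in Trem2-/- 1 to 4 they were 9.91, 9.62, 9.64 and 9.17. For 5XFAD 1 to 5 the levels were 8.72, 9.10, 8.75, 9.08 and 9.05. In Trem2-/-5XFAD the lowest, median and highest were 8.66, 9.04 and 9.26. Both groups with transgenes were low and overlapped each other, and both groups without them were high and overlapped each other. However, WT 2 and Trem2-/- 4 lay within the range of Trem2-/-5XFAD. Cmklr1 fell by 0.59 ± 0.15 in 5XFAD compared with WT (1.50-fold, limma adjusted p = 0.0116). The fall in Trem2-/-5XFAD compared with Trem2-/- was of the same size, -0.59 ± 0.15 (adjusted p = 0.041), a call lost in 14 of 31 alternatives. Trem2-/-5XFAD differed from 5XFAD by 0.06 ± 0.14 (95% interval -0.23 to 0.35, adjusted p = 0.854). Neither fall passed with Xist as a covariate (-0.47, adjusted p = 0.0764, and -0.43, adjusted p = 0.318), and the first did not without WT 3 (-0.48, adjusted p = 0.0553).

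Cx3cr1, the fractalkine receptor, fell in 5XFAD to a level below all other arrays. The levels of Cx3cr1 in WT 1 to 4 were 12.13, 12.19, 12.27 and 12.29, and in Trem2-/- 1 to 4 they were 12.02, 12.22, 12.10 and 12.17. 5XFAD 1 to 5 had 11.79, 11.78, 11.61, 11.69 and 11.76. In Trem2-/-5XFAD they ran from 12.01 over 12.05 to 12.11. The Trem2-/-5XFAD arrays lay above 5XFAD and overlapped Trem2-/- but not WT. The fall in 5XFAD compared with WT was -0.50 ± 0.08 (1.41-fold, 95% interval -0.66 to -0.33, adjusted p = 0.000177), and Trem2-/-5XFAD was 0.33 ± 0.07 above 5XFAD (1.25-fold, limma adjusted p = 0.00672). Trem2-/-5XFAD and Trem2-/- differed by -0.08 ± 0.08 (adjusted p = 0.715). Other microglial genes moved with it. Of the 7 measured markers, 6 fell in 5XFAD compared with WT (median -0.69), beside 6.77% of all genes. In Trem2-/-5XFAD compared with 5XFAD 4 of the 7 markers rose, beside 3.21% of all genes. Their summed intensity was 19000 to 22400 in WT, 18900 to 20400 in Trem2-/-, 13800 to 15100 in 5XFAD and 17700 to 18600 in Trem2-/-5XFAD. In bulk RNA, fewer cells of a type and less RNA per cell cannot be told apart.

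Ccr1, a receptor for Ccl3, Ccl5 and Ccl6, was near the filter in many arrays. WT levels of Ccr1, arrays 1 to 4, were 4.28, 4.32, 3.80 and 3.98, and in Trem2-/- 1 to 4 they were 5.40, 5.96, 4.27 and 4.66. Levels in 5XFAD 1 to 5 were 3.48, 3.56, 4.61, 3.84 and 3.26. In Trem2-/-5XFAD the lowest, median and highest were 3.96, 4.34 and 5.63. The groups overlapped in every comparison although Trem2-/- 1, Trem2-/- 2, Trem2-/- 4 and Trem2-/-5XFAD 1 stood above all WT and 5XFAD arrays. No difference passed in limma: Trem2-/- was 0.98 ± 0.35 above WT (adjusted p = 0.236), Trem2-/-5XFAD was 0.74 ± 0.30 above 5XFAD (adjusted p = 0.163), and 5XFAD differed from WT by -0.35 ± 0.33 (adjusted p = 0.562), or by 0.02 ± 0.48 without the arrays with salivary gland transcripts. Of the high arrays, Trem2-/- 1 and Trem2-/-5XFAD 1 had the most neutrophil markers. The highest, Trem2-/- 2 (5.96), had a neutrophil marker sum of 1185, and Trem2-/-5XFAD 6 had a sum of 2517 with Ccr1 at 4.38. Without Trem2-/- 1 and Trem2-/-5XFAD 1 the difference of Trem2-/-5XFAD from 5XFAD was 0.51 ± 0.27 (adjusted p = 0.325). In that setting Trem2-/- was 0.87 ± 0.32 above WT (limma adjusted p = 0.346). The monocyte marker Plac8, over the filter in 6 of 19 arrays, averaged 3.83 ± 0.38 (SD) in WT, 4.75 ± 0.86 in Trem2-/-, 3.74 ± 0.42 in 5XFAD and 4.25 ± 0.50 in Trem2-/-5XFAD (n = 4, 4, 5 and 6). The summed intensity of all 8 measured monocyte markers was 648 to 2370 in WT, 1370 to 2330 in Trem2-/-, 1230 to 2360 in 5XFAD and 1390 to 1770 in Trem2-/-5XFAD, so these sums overlapped between all groups. These monocyte sums mostly reflect Nr4a1, at 9.11 to 11.16, which is also counted below among the immediate early genes. No other marker on the monocyte list exceeded 6.67, so the sums say little about monocytes. The part of monocyte RNA in the Ccr1 values was not tested. Border macrophage markers are for macrophages at the surface of the brain. Of these markers, 7 of 10 rose in Trem2-/-5XFAD compared with 5XFAD, beside 3.21% of all genes. Their summed intensity was 1150 to 1900 in WT, 1290 to 2540 in Trem2-/-, 560 to 947 in 5XFAD and 1150 to 2020 in Trem2-/-5XFAD.

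Ccr2, which binds Ccl2, Ccl7 and Ccl12, did not pass the filter and was not tested. For Ccr2, WT 1 to 4 had 3.60, 4.15, 4.73 and 4.24, and in Trem2-/- 1 to 4 they were 3.95, 3.66, 4.33 and 3.71. 5XFAD levels, arrays 1 to 5, were 3.91, 3.49, 3.94, 3.58 and 3.62. In Trem2-/-5XFAD they ran from 3.69 over 3.83 to 4.07. All groups overlapped, and only WT 3, WT 4 and Trem2-/- 3 were over the filter. Ccr1 and Ccr2 lie on chromosome 9 with Xcr1, Ccr1l1 and Ccr3 as neighbours; those neighbours ranged from 3.01 to 3.95, 3.12 to 5.24 and 3.43 to 4.16 on the same scale. Cx3cr1 and Ccrl2 are on chromosome 9 as well, Cxcr4 is on chromosome 1, Cmklr1 and Cxcl2 are on chromosome 5, Cxcl16 is on chromosome 11 and Cxcl14 on chromosome 13.

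**Figure D2:**
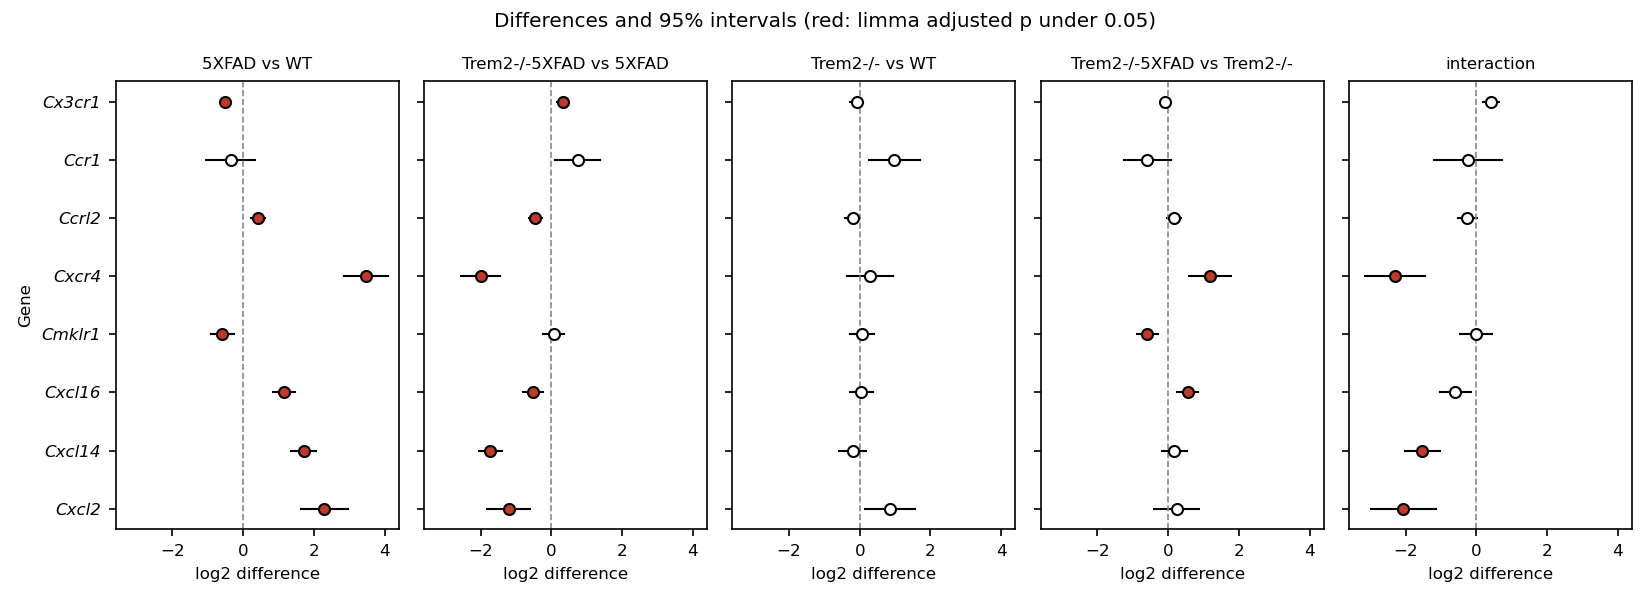
Differences of group means (log2, horizontal axis) of the 8 tested members in 5 comparisons, with 95% intervals as bars and red points where limma's adjusted p was under 0.05. 5XFAD vs WT has 7 red points, Trem2-/-5XFAD vs 5XFAD has 6, Trem2-/- vs WT has 0, Trem2-/-5XFAD vs Trem2-/- has 3 and the interaction has 3.

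Without the transgenes, loss of Trem2 left the members without a called difference: 0 of 8 passed in Trem2-/- compared with WT in limma, where 0.385% of all genes were called higher and 0.228% lower. At an unadjusted p under 0.05 there were 2, Ccr1 and Cxcl2. No member separated the groups, compared with 5.79% of all genes, and the members' median was 0.06 beside -0.008. Cx3cr1 differed by -0.09 ± 0.09 (adjusted p = 0.726), Cxcr4 by 0.29 ± 0.31 (adjusted p = 0.769) and Cxcl14 by -0.20 ± 0.18 (adjusted p = 0.71). Over its alternatives the Cxcr4 difference ran from -0.08 to 0.98, and the highest, 0.98 ± 0.29 (adjusted p = 0.104), was without the arrays with salivary gland transcripts. Cxcl2 was 0.86 ± 0.34 above WT (adjusted p = 0.288). WT 2, the highest WT array, decided whether it passed. Without WT 2 the difference was 1.29 ± 0.27 (limma adjusted p = 0.023), and without the arrays with salivary gland transcripts it was 1.63 ± 0.27 (adjusted p = 0.00274). That last setting left out WT 1 and WT 2 but kept Trem2-/- 3, whose salivary gland transcripts summed to 890.5, so it was uneven between the groups compared.

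The transgenes came with fewer called members where Trem2 was missing. In Trem2-/-5XFAD compared with Trem2-/-, 2 of 8 rose (Cxcr4 and Cxcl16) and 1 fell (Cmklr1), where 1.63% of all genes were called higher (207) and 0.558% lower (71), or 141 and 92 with each array centred on its median. Cxcr4, Cxcl16 and Ccrl2 did not overlap, compared with 6.01% of all genes, and the members' median was 0.18 beside 0.018. These calls were close to the threshold. They became 0 with Xist as a covariate (Cxcr4 1.35 ± 0.36, adjusted p = 0.0773) and 0 without Trem2-/- 1 and Trem2-/-5XFAD 1 (Cxcr4 1.20 ± 0.34, adjusted p = 0.121). They also became 0 when Trem2-/- 1, Trem2-/- 2 or Trem2-/-5XFAD 1, 2, 4 or 5 was left out alone, and 1 without Trem2-/- 4, 5XFAD 5 or Trem2-/-5XFAD 3 or 6. Over 31 alternatives Cxcr4 kept its call in 21 (differences of 0.96 to 1.35), Cmklr1 in 17 and Cxcl16 in 14.

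Whether the change with the transgenes itself depended on Trem2 was tested by the interaction, the difference of Trem2-/-5XFAD from Trem2-/- less that of 5XFAD from WT. It was negative and called for 3 of 8 members, while 1.58% of all genes were called lower (201) and 1.02% higher (130), or 224 and 78 with median centring, and the members' median was -0.42 beside 0.027. Cxcr4 had -2.30 ± 0.41 (limma adjusted p = 0.00295), Cxcl2 -2.07 ± 0.44 (adjusted p = 0.0121) and Cxcl14 -1.53 ± 0.24 (adjusted p = 0.000828). For these 3 genes the rise was smaller without Trem2, and only that of Cxcr4 was itself called there. Without the arrays with salivary gland transcripts the values were -2.92, -2.92 and -1.26, all called.

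The interaction did not pass for the other 5. For Cxcl16 it was -0.59 ± 0.21 (95% interval -1.02 to -0.16, limma adjusted p = 0.166) and for Ccrl2 -0.25 ± 0.13 (adjusted p = 0.419). Cx3cr1 missed the threshold at 0.42 ± 0.11 (95% interval 0.18 to 0.65, adjusted p = 0.0526). Its interaction passed in 6 of 30 alternatives, among them 0.45 without WT 1 (adjusted p = 0.0449). Its interaction did not pass with Xist as a covariate (0.42, adjusted p = 0.0619) or without the arrays with high neutrophil markers (0.38, adjusted p = 0.162). For Cmklr1 it was 0.00 ± 0.21, with a 95% interval of -0.45 to 0.45, and for Ccr1 -0.24 ± 0.46 (adjusted p = 0.888). So no difference in response by Trem2 genotype was shown for Cxcl16 or Ccrl2, although both were lower in Trem2-/-5XFAD than in 5XFAD.

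**Figure D3:**
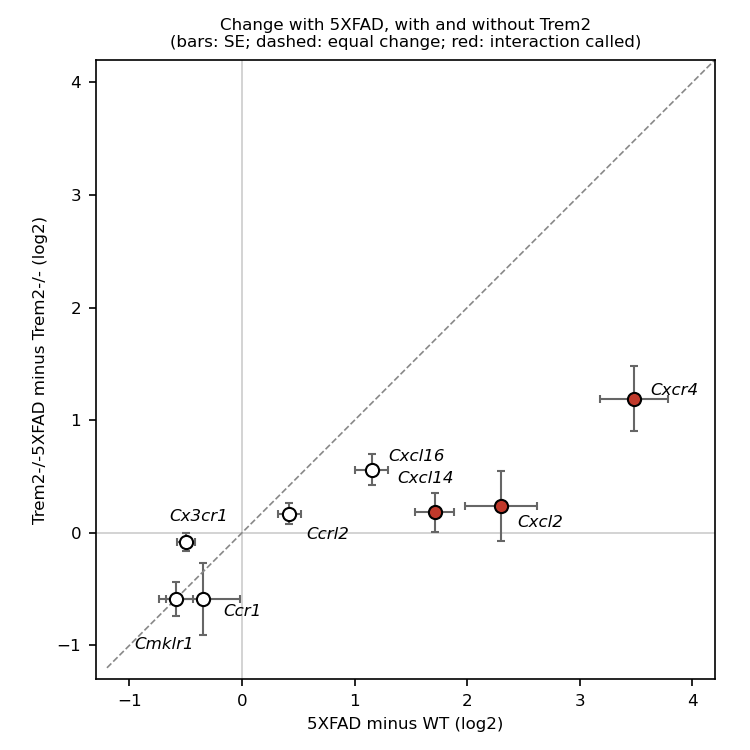
Difference of 5XFAD from WT (horizontal, log2) and of Trem2-/-5XFAD from Trem2-/- (vertical, log2) for the 8 tested members, comparisons that share no arrays. Bars are SE, the dashed line marks equal differences, and red marks members whose interaction was called: Cxcr4, Cxcl2 and Cxcl14 lie well under the line, and Cmklr1 lies on it at -0.59.

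The partner genes of these receptors and ligands were counted from lists of names. Among other chemokine receptors, 7 of 18 measured genes passed the filter (Ccr6, Ccr7, Ccr10, Ccr1l1, Cxcr3, Ackr2 and Ackr4), and 0 were called in limma in any of the 5 comparisons, with 0 to 3 at an unadjusted p under 0.05. The closest in 5XFAD vs WT was Ccr7, which guides cells to lymph nodes, at 0.36 ± 0.15 (adjusted p = 0.104). The receptors of the member ligands did not pass the filter: Cxcr6, which binds Cxcl16, was at 3.19 to 3.89, and Cxcr2, which binds Cxcl2, at 2.57 to 4.15. Ackr3, the other receptor of Cxcl12, was at 3.60 to 5.01.

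Among other CXC, CX3C and XC ligands and chemerin, 11 of 15 were tested. In 5XFAD compared with WT 1 rose and 1 fell, beside 8.23% and 6.77% of all genes, and the median was 0.14. In Trem2-/-5XFAD compared with 5XFAD 1 rose and 0 fell, beside 3.21% and 4.46%. Cxcl10, an interferon-induced ligand of Cxcr3, rose by 1.39 ± 0.23 (limma adjusted p = 0.000229) and also rose in Trem2-/-5XFAD compared with Trem2-/- by 1.35 ± 0.22 (adjusted p = 0.00144). Its difference of Trem2-/-5XFAD from 5XFAD was -0.23 ± 0.21 (adjusted p = 0.594), unlike the member ligands Cxcl2, Cxcl14 and Cxcl16, which were called lower there; no test compared Cxcl10 with them. Pf4, which is also a marker of border macrophages, fell by 1.04 ± 0.31 in 5XFAD (adjusted p = 0.0265) and was 1.08 ± 0.28 higher in Trem2-/-5XFAD than in 5XFAD (adjusted p = 0.0201). The ligands of Cx3cr1, Cmklr1 and Cxcr4 were not called in 5XFAD vs WT or were below the filter: Cx3cl1 (fractalkine) differed by -0.09 ± 0.13 between 5XFAD and WT (adjusted p = 0.726), chemerin (Rarres2) by -0.10 ± 0.15 (adjusted p = 0.72), and Cxcl12 was at 3.50 to 3.90. Cxcl1, a Cxcr2 ligand like Cxcl2, was 0.58 ± 0.26 higher without passing (adjusted p = 0.151).

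The 8 CC ligands of Ccr1 and Ccr2 were all tested and went both ways. In 5XFAD compared with WT 2 rose and 3 fell (median -0.01), beside 8.23% and 6.77% of all genes. In Trem2-/-5XFAD compared with 5XFAD 2 rose and 1 fell (median 0.10), beside 3.21% and 4.46%. Ccl6, a ligand of Ccr1, averaged 9.22 ± 0.18 (SD) in WT, 8.96 ± 0.12 in Trem2-/-, 10.83 ± 0.09 in 5XFAD and 9.65 ± 0.14 in Trem2-/-5XFAD (n = 4, 4, 5 and 6). Its difference of Trem2-/-5XFAD from 5XFAD was -1.18 ± 0.09 (limma adjusted p = 3.28e-08) and its interaction -0.92 ± 0.15 (adjusted p = 0.000869), in the direction of Cxcr4, Cxcl2 and Cxcl14. Ccl2 and Ccl7, ligands of Ccr2, went the opposite way: in 5XFAD they fell by 1.02 ± 0.16 (adjusted p = 8.14e-05) and 1.18 ± 0.32 (adjusted p = 0.0153), and in Trem2-/-5XFAD they were 0.73 ± 0.14 (adjusted p = 0.00203) and 1.28 ± 0.29 (adjusted p = 0.00753) above 5XFAD. Ccl9, a Ccr1 ligand, fell by 0.67 ± 0.13 in 5XFAD (adjusted p = 0.00117), and Ccl5 rose by 1.08 ± 0.32 (adjusted p = 0.0258).

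Of 27 tested genes of receptor signalling and ligand shedding, 10 fell and 2 rose in 5XFAD compared with WT (median -0.27), beside 6.77% and 8.23% of all genes. In Trem2-/-5XFAD compared with 5XFAD 4 rose and 0 fell (median 0.13), beside 3.21% and 4.46%. Elmo1, which joins chemoattractant receptors to Rac activation in migrating cells, fell by 0.81 ± 0.09 (limma adjusted p = 1.19e-06), was 0.52 ± 0.08 higher in Trem2-/-5XFAD than in 5XFAD (adjusted p = 0.000179), and had an interaction of 0.50 ± 0.12 (adjusted p = 0.0311). Pik3cg and Plcb2, enzymes activated by the G protein subunits that these receptors release, had interactions of 0.55 ± 0.13 (adjusted p = 0.0202) and 0.73 ± 0.15 (adjusted p = 0.00872). Adam10, the sheddase of Cxcl16, fell by 0.51 ± 0.11 in 5XFAD (adjusted p = 0.00304), where Cxcl16 rose. Adam10 averaged 8.77 ± 0.28 (SD, n = 4) in WT and 8.26 ± 0.06 (n = 5) in 5XFAD. The 2 that rose were Jak2, by 0.58 ± 0.13 (adjusted p = 0.00299), and the G protein subunit Gnb1, by 0.35 ± 0.10 (adjusted p = 0.015).

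**Figure D4:**
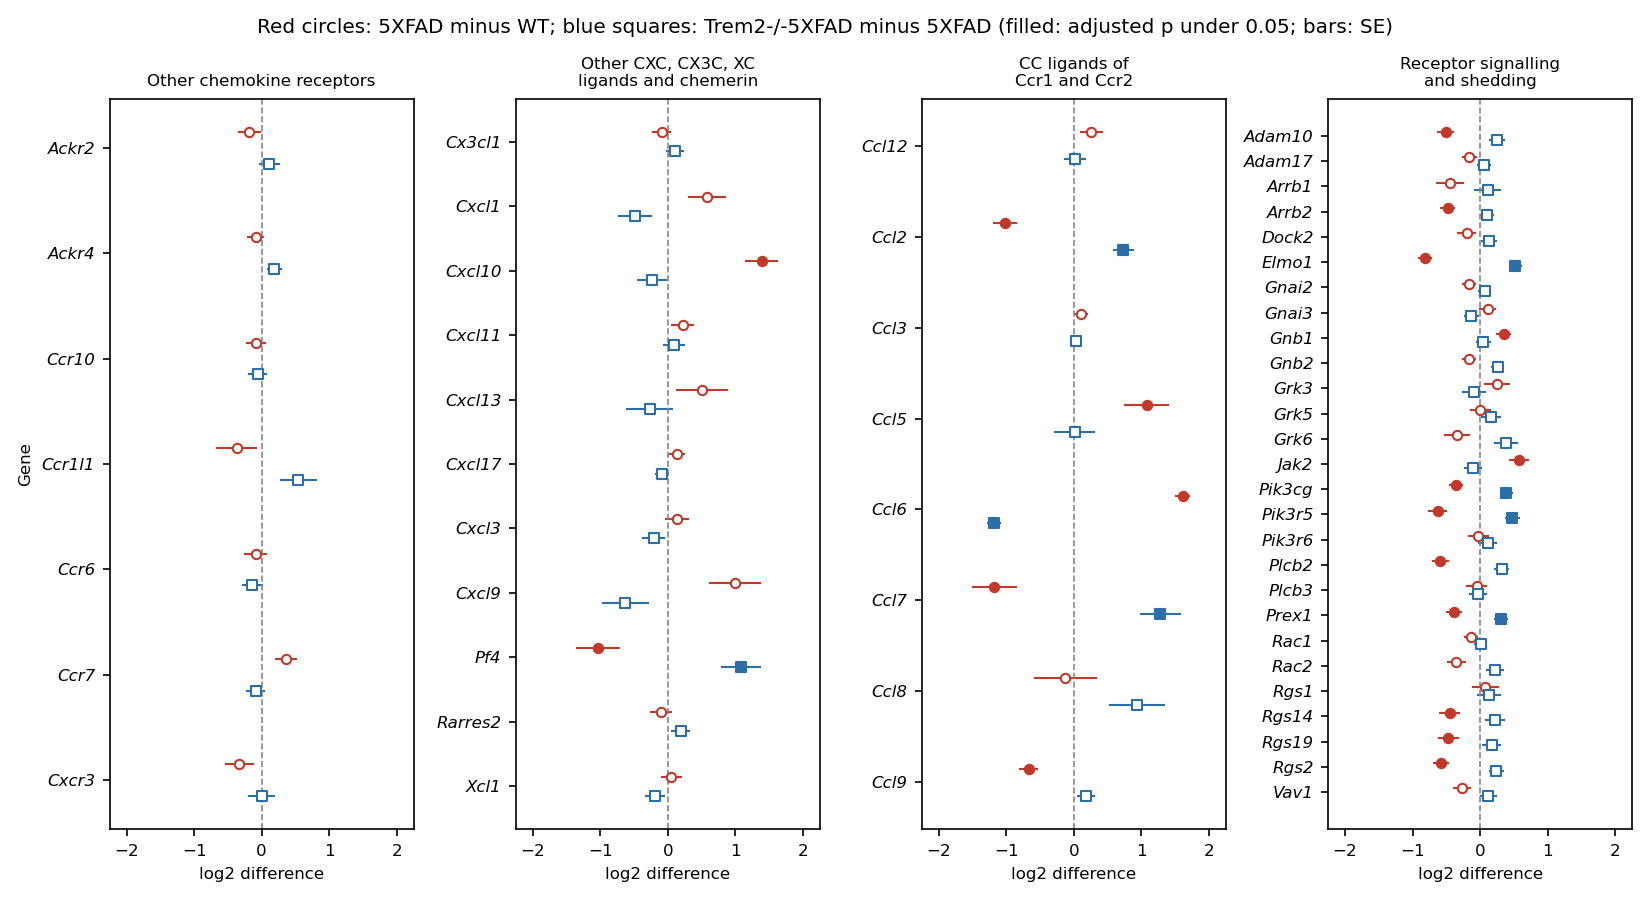
Log2 differences with SE bars for the tested genes of the 4 lists, 5XFAD minus WT as red circles and Trem2-/-5XFAD minus 5XFAD as blue squares, filled where limma's adjusted p was under 0.05. None of the 7 other receptors is filled, and Ccl6, Ccl2, Ccl7, Pf4, Elmo1, Pik3cg, Pik3r5 and Prex1 are filled for both comparisons, which share the 5XFAD arrays.

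The genes whose log2 values followed each member most closely over the 19 arrays are given as a description, since all arrays carry the same group differences. For Cx3cr1 they were Lpcat2 (Pearson r 0.965), Sparc (0.958) and Tmem119 (0.957). For Cxcr4 they were Tlr2 (0.972), Ptger4 (0.972) and Igf1 (0.968), and for Cxcl16 they were Vim (0.956), Tlr2 (0.949) and Ptger4 (0.942), so Cxcr4 and Cxcl16 shared Tlr2 and Ptger4. For Cxcl2 they were Cd44 (0.938), Cd14 (0.932) and Wfdc17 (0.928), and for Cxcl14 they were Dkk2 (0.950), Ssr4 (0.943) and Sulf2 (0.941). For Ccrl2 they were Vegfa (0.947), Olfr111 (0.944) and Pea15a (0.924), and for Cmklr1 they were Cpox (0.906), Mis12 (0.888) and Tmem37 (0.881). Ccr1 had the lowest values, with Plac8 (0.818), Cfp (0.789) and Cd163 (0.789), of which Plac8 is on the monocyte list and Cd163 on the border macrophage list.

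Dissociation can switch on immediate early genes, and these too differed between groups. In 5XFAD compared with WT, where Cxcl2 and Cxcr4 rose, 1 of 15 tested immediate early genes rose and 7 fell (median -0.29). Beside this, 8.23% of all genes were called higher and 6.77% lower. Immediate early genes summed to 41000 to 44500 in WT and 41100 to 42600 in Trem2-/-. The sums were 31900 to 38100 in 5XFAD and 34100 to 39600 in Trem2-/-5XFAD. Vascular markers summed to 143 to 183 in WT, 139 to 152 in Trem2-/-, 190 to 261 in 5XFAD and 98.9 to 126 in Trem2-/-5XFAD, highest in 5XFAD as Cxcl14 was, with Itm2a and Rgs5 over the filter in 0 arrays and Cldn5 in 2. Of the 2 vascular markers tested, Flt1 rose by 2.95 ± 0.15 (limma adjusted p = 1.62e-11) and Pecam1 fell by 1.63 ± 0.14 (adjusted p = 4.77e-08) in 5XFAD. The part of these genes in the members' differences was not tested.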

How the data were processed

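The authors deposited 1 table of intensity on a linear scale (24679 probe sets, 20 arrays); its background correction, summary and normalization were not given in the sources used here. Per the labels' protocols, 2 ng of total RNA per array was turned into biotinylated cRNA; inputs this small must be amplified, and weak genes are then noisier. Array medians were 25.7 to 28.6, so the arrays share a scale. Precision is limited by the number of arrays. The platform annotation names 1 gene for 21354 probe sets, several for 1275 and none used here for 2050; a gene with several took its brightest on average. Values were analysed as log2(intensity + 1) in limma (version 3.58.1, under R 4.3.3), fitting 4 group means to 19 arrays at once, after the script was tested on simulated data. Genes were named by these rules: all 9 members, up to 6 called genes per list and comparison by smallest p, and the 3 genes most correlated with each member; marker genes were named to describe the arrays. Ccr7, Cxcl1, Cx3cl1, Rarres2, Cxcr6, Cxcr2, Ackr3 and Cxcl12 were named outside these rules, as partners of members or the closest to a call, after their values were seen. The members and lists were chosen with earlier results of these data known. Replicate numbers were checked for pairing. Over 25 same-numbered pairs the correlation of deviations from group means ran from -0.104 to 0.166, with 5 over 0.1. Between WT and 5XFAD it was 0.104, 0.161, 0.095 and 0.166 for replicates 1 to 4, and salivary gland transcripts were high in replicates 1 and 2 of both groups. Whether these arrays shared handling was not tested. The numbers were not treated as pairs in the main model, and the replicate number as a block was among the alternatives. Alternatives changed the pseudocount, the filter, the scaling, the probe set rule, array weights, the arrays used and the covariates.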

Additional observations from a re-analysis of the deposited data

Results flagged for a closer look

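Ccr1 in Trem2-/-5XFAD 1 was far above the other 5 arrays of its group, at 5.63 against 4.46 for the next. The gap was 0.697 of the group's range, over Dixon's 95% critical value for 6 arrays. Chance gives such a gap in about 1 in 20 groups, and 36 groups were looked at. This array also had the highest summed neutrophil markers (5830), whose part in the value was not tested.

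The change with the 5XFAD transgenes differed by Trem2 genotype for 3 members by a test of the interaction in limma: Cxcr4 (-2.30, adjusted p = 0.00295), Cxcl14 (-1.53, adjusted p = 0.000828) and Cxcl2 (-2.07, adjusted p = 0.0121).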

How the results depend on the processing

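Each of 40 results (8 members in 5 comparisons) was recomputed under 29 to 31 alternatives, 1227 values in all: 1175 kept their side of the threshold, 44 lost the call, 8 gained it, and no called value changed sign. In 5XFAD vs WT 6 to 7 members were called, in Trem2-/-5XFAD vs 5XFAD 5 to 6, and for the interaction 3 to 4. In Trem2-/- vs WT the count was 1 without the arrays with salivary gland transcripts, and 0 to 1 when 1 array at a time was left out. In Trem2-/-5XFAD vs Trem2-/- the 3 calls became 1 with no filter, 1 with the replicate number as a block, 0 with Xist as a covariate, 0 without the arrays with high neutrophil markers, and 0 to 3 when 1 array at a time was left out. The cause was not tested. With the replicate block, the only calls lost were those of Cmklr1 (-0.52, adjusted p = 0.156) and Cxcl16 (0.60, adjusted p = 0.0576) in that comparison. Over all genes, the called counts (main count in parentheses) ranged from 1395 to 2043 (1909) in 5XFAD vs WT, 579 to 1319 (977) in Trem2-/-5XFAD vs 5XFAD, 11 to 271 (78) in Trem2-/- vs WT, 146 to 507 (278) in Trem2-/-5XFAD vs Trem2-/- and 208 to 383 (331) for the interaction. Weak signal limits Ccr1 and Ccr2, which lay near the 40th percentile of the arrays. It also limits Cxcl14 outside 5XFAD (4.58 to 5.27) and Cxcr4 in WT 4 (4.88), which lay not far above that percentile.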

Other observations

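In the array with conflicting labels, whose title says WT and whose genotype label says Trem2-/-, Trem2 was at 11.08. The members there were at 12.09 for Cx3cr1, 4.35 for Ccr1, 3.91 for Ccr2, 10.20 for Ccrl2, 6.81 for Cxcr4, 9.32 for Cmklr1, 8.84 for Cxcl16, 4.73 for Cxcl14 and 9.84 for Cxcl2.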
